A study of Mus musculus with 14 samples.

Results

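The genes described here are 34 genes chosen by name: 22 encode glucose transporters, glycolytic enzymes, their regulators and the exporter of lactate, and 12 are other genes that hypoxia is known to induce. The choice was made with earlier results of these data known. A gene was taken from the probe with the highest mean signal among the probes annotated to that symbol alone. By this rule 31 of the 34 were measured, 19 of the 22 glycolysis genes and all 12 of the other hypoxia-induced genes, out of 19938 genes in all. Gapdh, Gpi1 and Eno1 had no probe that named them alone and were not analysed here. Ero1l is listed under its current symbol, Ero1a.

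The cells were MEFs, fibroblasts taken into culture from mouse embryos. They carried retroviruses for Sox2, Klf4 and Oct4 (SKO), the factors used to turn fibroblasts into pluripotent stem cells, or a control virus for green fluorescent protein (GFP). All groups had 2 rounds of infection and were moved on day 2 to mouse embryonic stem cell medium with serum and the cytokine LIF, with vitamin C (Vc, ascorbate) at 50 µg/ml or without it. The SKO course was sampled on days 3, 4, 5, 6, 8 and 10, with 1 treated and 1 untreated array a day (12 arrays), and the GFP control on day 3 alone, with 1 treated and 1 untreated array. There was 1 array for a condition on a day, and precision is limited by how few arrays there are. The p-values rest on how the difference between treated and untreated arrays varied over the days of 1 time course. In comparisons between days or viruses, a shift shared by both arrays of a day counts as a difference and not as error. The sources used here do not name the mouse strain or the age of the embryos.

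Hypoxia-inducible factor (HIF) is a transcription factor whose alpha subunits are made all the time and destroyed while oxygen is plentiful. Prolyl hydroxylases of the Egln family mark these subunits for the Vhl ubiquitin ligase, and as dioxygenases that need iron and 2-oxoglutarate they work best with ascorbate, which keeps their iron reduced. When hydroxylation slows, HIF gathers at promoters that hold its core motif and raises glucose uptake, glycolysis, lactate export, mitophagy and vessel growth factors. Pluripotent stem cells are also known for a high rate of glycolysis.

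The array medians lay between 5.19 and 5.28 on the log2 scale. The first principal component (35.6% of the variance) set the GFP arrays apart from the late SKO arrays. The second (20.1%) set days 3 and 5 of the SKO cells (16.4 to 35.9) apart from days 4, 6 and 8 (-27.1 to -4.08) and from the GFP arrays (-18.3 and -5.69), so SKO and GFP arrays of day 3 also differed along it. The mean signal of 11 fibroblast markers was 10.56 to 10.74 in the GFP arrays and 9.89 to 10.21 in the SKO arrays, and each of the 11 was at 5.67 or more on every array. In whole cultures fewer cells of a type and less RNA per cell cannot be told apart.

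Promoter sequence was examined because several of these genes had lower signals with vitamin C in the SKO cells, none of them past the test. Each window runs from upstream of a RefSeq start site to just past it (mouse build GRCm38.p6), and 50 windows were listed for 31 of the 34 genes; Slc2a3, Bnip3l and Ndrg1 had none. The HIF core was searched on both strands as ACGTG and as GCGTG, and a CACGTG counts on both strands. ACGTG was found in 25 of the 50 windows (50.0%), against 19.6% of 32851 windows of all genes, and at least 1 window held it for 21 of the 31 genes (67.7%), against 21.8% of 27025 genes. ACGTG or GCGTG was found in 78.0% of the windows of these genes and 43.8% of all windows. A match is a description of the letters and not a measured binding site. The list was chosen by name partly for induction by hypoxia, so these shares are no independent finding about it. With 50 windows for 31 genes, against 32851 for 27025, the share by gene also favours the list. The windows of 4 genes are printed, Ankrd37, Bnip3 and Slc2a1, which with Pdk1 had the smallest unadjusted p-values of the list in the vitamin C comparison, and Aldoc, whose signal differed in the opposite direction; these 4 were chosen after their values were seen. Capitals mark ACGTG or its reverse complement CACGT. The window of Ankrd37 is chr8:45999801-46000100 on the minus strand, that of Bnip3 chr7:138909457-138909756 on the minus strand, that of Slc2a1 chr4:119108495-119108794 on the plus strand and that of Aldoc chr11:78322823-78323122 on the plus strand.
Ankrd37: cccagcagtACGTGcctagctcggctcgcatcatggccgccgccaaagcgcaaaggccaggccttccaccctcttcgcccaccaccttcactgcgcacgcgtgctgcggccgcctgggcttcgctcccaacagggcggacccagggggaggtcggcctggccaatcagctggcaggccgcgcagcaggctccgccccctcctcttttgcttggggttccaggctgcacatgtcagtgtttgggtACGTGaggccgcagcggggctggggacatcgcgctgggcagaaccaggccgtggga
Bnip3: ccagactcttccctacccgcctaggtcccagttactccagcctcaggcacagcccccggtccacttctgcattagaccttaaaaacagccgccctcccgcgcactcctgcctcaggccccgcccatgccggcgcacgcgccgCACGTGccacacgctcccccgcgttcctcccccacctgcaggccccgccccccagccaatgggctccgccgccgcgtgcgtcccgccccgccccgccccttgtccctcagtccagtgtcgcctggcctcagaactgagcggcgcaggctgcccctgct
Slc2a1: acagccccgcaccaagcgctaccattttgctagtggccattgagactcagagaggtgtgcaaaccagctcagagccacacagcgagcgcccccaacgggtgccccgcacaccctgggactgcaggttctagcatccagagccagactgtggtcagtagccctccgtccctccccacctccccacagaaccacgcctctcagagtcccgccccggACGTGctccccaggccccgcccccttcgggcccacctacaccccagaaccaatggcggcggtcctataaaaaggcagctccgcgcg
Aldoc: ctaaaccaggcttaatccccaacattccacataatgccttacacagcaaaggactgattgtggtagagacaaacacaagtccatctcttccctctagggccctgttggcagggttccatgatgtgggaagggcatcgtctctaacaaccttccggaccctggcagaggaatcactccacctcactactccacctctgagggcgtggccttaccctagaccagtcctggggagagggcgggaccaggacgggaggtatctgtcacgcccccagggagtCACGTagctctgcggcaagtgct
Ankrd37 has 2 separate copies of the core, Bnip3 has a palindromic CACGTG, and Slc2a1 and Aldoc have 1 copy each. The window of the second listed start of Aldoc had no ACGTG. Pdk1, whose windows are not printed, had no ACGTG in any listed window.

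The first question was what vitamin C changed in SKO cells. None of the 31 genes passed the test (limma, adjusted p under 0.05 over all genes; 0 of 31, against 0.933% of all genes tested in either direction, 0.642% higher and 0.291% lower). At an unadjusted p under 0.05, 12 of the 31 were lower with vitamin C and 1 was higher, against 5.07% of all genes lower and 6.5% higher. The 12 were Ankrd37, Pdk1, Bnip3, Slc2a1, Pfkl, Ldha, Vegfa, Slc16a3, Ero1a, Ndrg1, Pkm and Pgk1, and the 1 higher gene was Aldoc. Of the 12, 7 were glycolysis genes and 5 were other hypoxia-induced genes. The median difference of the 31 genes was -0.072 on the log2 scale, against -0.0076 over all genes. With the unadjusted threshold, the count lower was between 9 and 11 without any 1 of the days. The list was chosen with earlier results of these data known. Its counts beside the shares of all genes, here and below, are therefore a description and no independent support.

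Directions repeated over days for part of the list. For 8 of the 31 genes (25.8%) the signal with vitamin C was below that without it on all 6 days of the SKO course, against 639 of 19938 genes (3.20%). These were Pfkl, Pkm, Ldha, Pdk1, Bnip3l, Ndrg1, Vegfa and Ankrd37, and the same 8 were also lower in the GFP pair. Aldoc was the 1 gene higher on all 6 days, a pattern that 3.90% of all genes had. For days 3, 4, 5, 6, 8 and 10 the number of lower genes among the 31 was 24, 22, 22, 18, 21 and 19, with medians of -0.27, -0.092, -0.12, -0.032, -0.14 and -0.054. All genes had between 48.5% and 53.7% lower on these days.

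**Figure D1:**
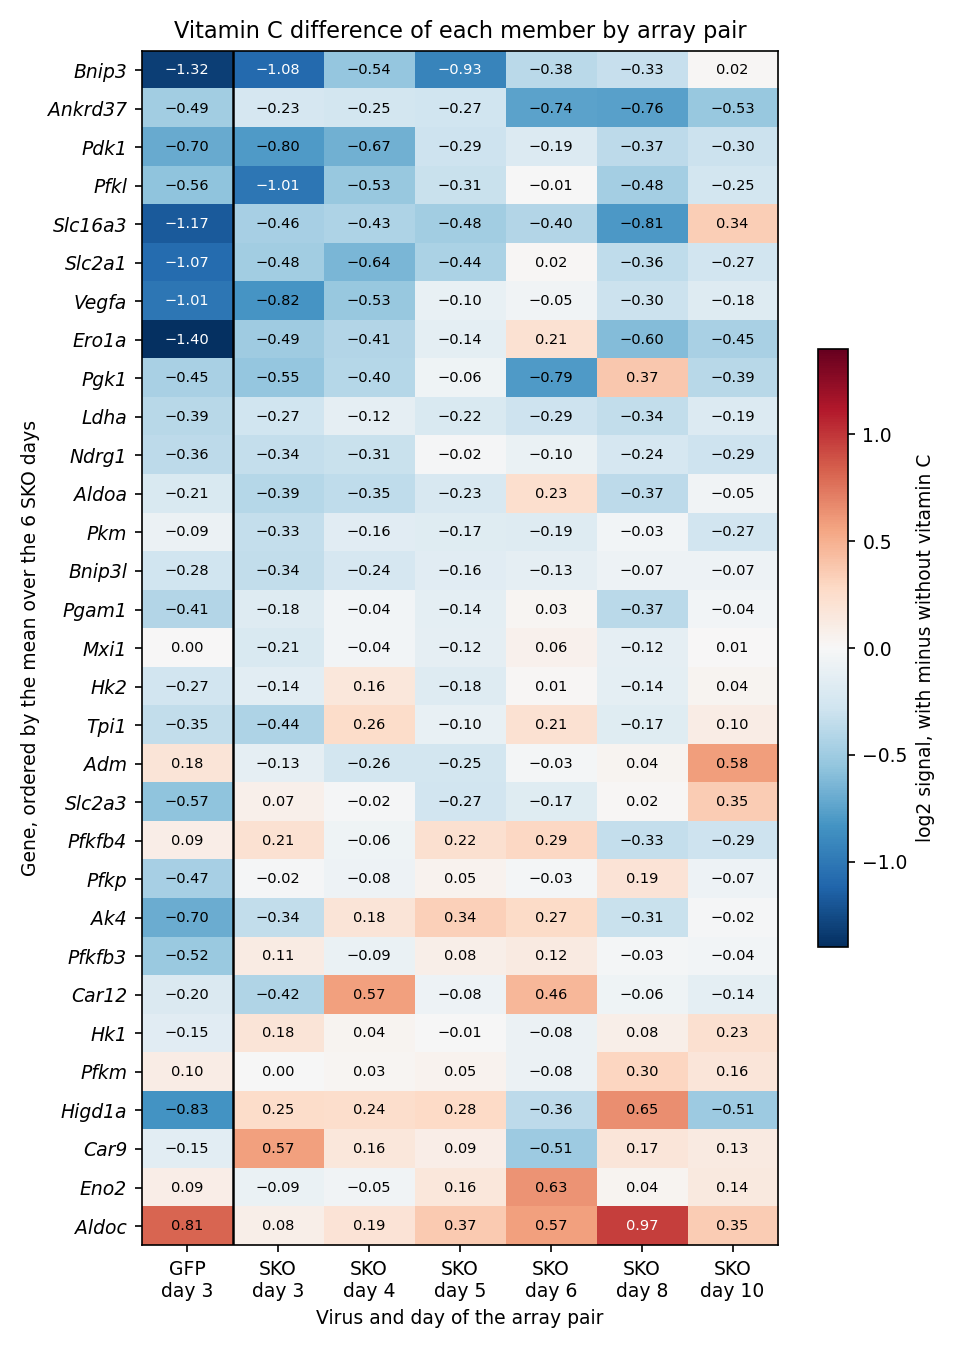
Difference in log2 signal, with minus without vitamin C, for the 31 measured genes (rows, ordered by the mean over the 6 SKO days) in the GFP pair of day 3 and the 6 SKO pairs (columns); each cell is 1 array minus 1 array, blue is lower and red higher with vitamin C. Bnip3 heads the list with -1.08 on day 3 and 0.02 on day 10, and Aldoc closes it with 0.08 to 0.97.

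**Figure D2:**
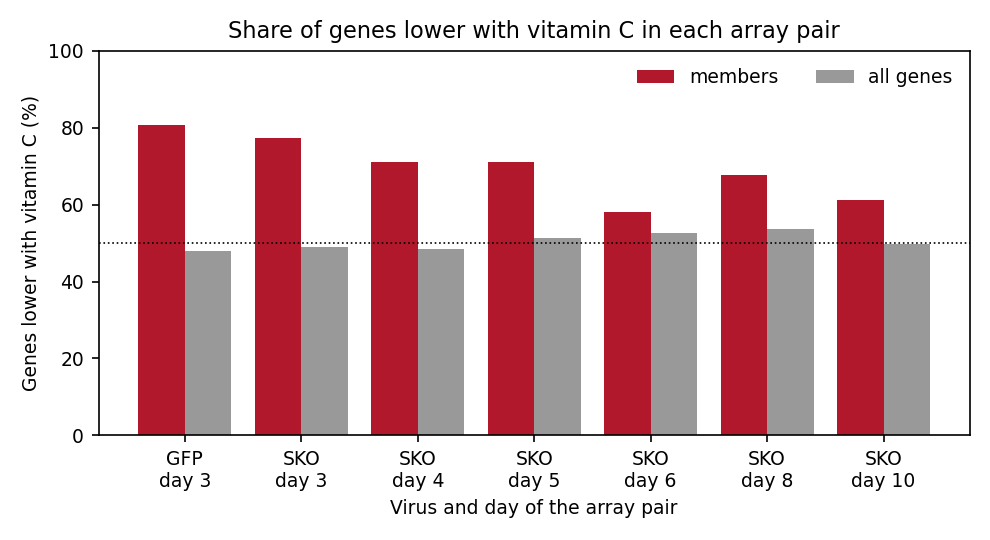
Percent of genes with a lower signal with vitamin C in each array pair (bars from 0, red for the 31 genes and grey for all 19938 genes; the dotted line is at 50%). The red bars stand at 80.6% in the GFP pair and between 58.1% and 77.4% in the SKO pairs.

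Glucose uptake was represented by Slc2a1 and Slc2a3, which encode the glucose transporters GLUT1 and GLUT3. The log2 signal of Slc2a1 was 7.88 to 8.56 without vitamin C (median 8.28, 6 days) and 7.60 to 8.08 with it (median 7.90). It was lower on 5 of 6 days and at 0.02 on day 6, with a mean difference of -0.36 ± 0.10 (SE; 1.29-fold, adjusted p = 0.127). Slc2a3 differed by -0.0021 ± 0.096, with 3 days lower and 3 higher. Whether the 2 transporter genes differed from each other in this was not tested.

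The first steps of the pathway gave 1 gene with a low unadjusted p. Hexokinases trap glucose in the cell as glucose 6-phosphate. Hk2, the inducible form, differed by -0.04 ± 0.08 and Hk1 by 0.07 ± 0.08. Phosphofructokinase makes the committed step, and its 3 isoform genes had separate values: Pfkl, the liver form, -0.43 ± 0.12 (adjusted p = 0.137), Pfkp, the platelet form, 0.0083 ± 0.081, and Pfkm, the muscle form, 0.077 ± 0.085. Pfkl was 7.11 to 7.95 without vitamin C (median 7.38) and 6.86 to 7.18 with it (median 6.93); its difference was widest on day 3 (-1.01) and near 0 on day 6 (-0.01). The signals of the arms overlapped between 7.11 and 7.18. Pfkfb3 and Pfkfb4, whose products make the activator of phosphofructokinase, differed by 0.026 ± 0.080 and 0.0078 ± 0.11.

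The steps from aldolase onward held both the highest and several of the lower values. Aldolase C, the brain form of the enzyme that splits the sugar into 2 triose phosphates, is encoded by Aldoc. Its log2 signal was 6.28 to 8.52 without vitamin C (median 7.38) and 6.36 to 8.87 with it (median 7.85), and both arms climbed over the days. Within days the treated culture was above the untreated one by 0.08, 0.19, 0.37, 0.57, 0.97 and 0.35 on days 3, 4, 5, 6, 8 and 10 (mean 0.42 ± 0.11, 1.34-fold, adjusted p = 0.131). Aldoa, the general form, differed by -0.19 ± 0.10, with 1 of 6 days higher. The paralogs had opposite signs, with neither past the test.

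Ldha encodes the subunit of lactate dehydrogenase that turns pyruvate into lactate. Without vitamin C its log2 signal was 10.36 to 10.83 (median 10.47), and with it 10.11 to 10.56 (median 10.27). The difference was small and steady, between -0.34 and -0.12 on the 6 days (mean -0.24 ± 0.08, 1.18-fold, adjusted p = 0.238). Pkm, pyruvate kinase, differed by -0.19 ± 0.08 and was lower on all 6 days. Pgk1, phosphoglycerate kinase, differed by -0.30 ± 0.13, and ranged from -0.79 on day 6 to 0.37 on day 8. Pgam1, a phosphoglycerate mutase, differed by -0.12 ± 0.09, Tpi1, triose phosphate isomerase, by -0.023 ± 0.10 and Eno2, the neuronal enolase, by 0.14 ± 0.10.

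The fate of pyruvate was represented by Pdk1 and Slc16a3. Pdk1 encodes a kinase that shuts pyruvate dehydrogenase off and so keeps pyruvate out of the mitochondrion. Its log2 signal was 6.36 to 6.72 without vitamin C (median 6.38) and 5.56 to 6.42 with it (median 6.14). The gap was -0.80 on day 3 and -0.67 on day 4 and lay between -0.37 and -0.19 on the later days (mean -0.44 ± 0.10, 1.35-fold, adjusted p = 0.0726). Slc16a3 encodes a monocarboxylate transporter that exports lactate; it was 5.95 to 6.82 without vitamin C (median 6.18) and 5.47 to 6.37 with it (median 5.79). It was lower on 5 of 6 days, by 0.40 to 0.81, and 0.34 higher on day 10 (mean -0.37 ± 0.13, adjusted p = 0.254).

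Ankrd37, an ankyrin repeat gene known as a direct HIF target, had the smallest p of the 31 genes. Its log2 signal was 4.67 to 5.34 without vitamin C (median 5.11) and 4.40 to 4.81 with it (median 4.52). The mean over the 14 arrays was 4.78, at percentile 37.8 of all genes, a weak signal of a kind that RMA compresses. The difference was -0.23 to -0.27 on days 3 to 5 and -0.74, -0.76 and -0.53 on days 6, 8 and 10 (mean -0.47 ± 0.10, 1.38-fold, adjusted p = 0.0593). The untreated culture climbed from 4.67 to 5.34 between days 3 and 10 and the treated one ended at 4.81. It passed in 4 of 17 alternative runs. Its adjusted p was 0.0474 with the arrays centred on their medians and 0.0344 with quantile normalization. It was 0.0303 without the 6646 dimmest genes and 0.0480 with an intensity trend. Under that last setting Bnip3, Pdk1 and Slc2a1 passed too. In the other runs Ankrd37 did not pass, with an adjusted p of up to 0.591 (days 3, 5 and 10 only).

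Bnip3 and Bnip3l encode receptors on mitochondria that mark them for autophagy. Bnip3 was 7.47 to 7.90 without vitamin C (median 7.66) and 6.63 to 7.58 with it (median 7.19), and the arms overlapped. Its difference was -1.08 on day 3, -0.54 on day 4 and -0.93 on day 5, and it closed to 0.02 by day 10 (mean -0.54 ± 0.13, 1.45-fold, adjusted p = 0.0985). The slope of this difference was 0.14 ± 0.04 per day, the smallest p of the list for a slope, and did not pass (adjusted p = 0.372; 0 of 31 genes passed, against 0.0351% of all genes). Bnip3l differed by -0.17 ± 0.08, on all 6 days below 0.

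Vegfa encodes the main growth factor for blood vessels. Its log2 signal was 6.58 to 7.25 without vitamin C (median 6.66) and 6.28 to 6.65 with it (median 6.47). The difference was widest on day 3 (-0.82) and day 4 (-0.53), and between -0.30 and -0.05 later (mean -0.33 ± 0.11, adjusted p = 0.241). Ero1a, an oxidase that forms disulfide bonds in the endoplasmic reticulum, was 7.91 to 8.93 without vitamin C (median 8.36) and 7.42 to 8.50 with it (median 8.06), lower on 5 of 6 days (mean -0.31 ± 0.11, adjusted p = 0.276). Ndrg1, a stress-induced growth suppressor gene, differed by -0.21 ± 0.08 and was lower on all 6 days. The differences of 6 other hypoxia-induced genes lay near 0: Mxi1 (-0.072), a repressor that opposes Myc, Adm (-0.0073), the vasodilator peptide adrenomedullin, Ak4 (0.021), a mitochondrial adenylate kinase, Higd1a (0.093), a mitochondrial survival gene, and the carbonic anhydrases Car9 (0.10) and Car12 (0.057). Car9 and Car12 were among the 6646 dimmest genes (mean signal below 4.54), where RMA compresses differences.

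Several of these values depend on which probe stands for the gene. Probe numbers run along the chromosomes, and 99.7% of genes with 1 probe lay among probes of their own chromosome, but the brightest probes of Ak4, Bnip3, Bnip3l, Hk1 and Pkm lay among probes of another one. What those probes detect was not tested, and the values above are theirs. Measured by the probe of their own chromosome, Bnip3 differed by -0.44 ± 0.11 with vitamin C (adjusted p = 0.0900), Pkm by -0.32 ± 0.09, Bnip3l by -0.10 ± 0.08, Hk1 by -0.061 ± 0.093 and Ak4 by 0.36 ± 0.13 (adjusted p = 0.302). With own-chromosome probes 8 genes were again lower on all 6 days (25.8%, against 3.18% of all genes): Bnip3 joined them and Bnip3l, at 0.0084 on day 8, left. Ak4 then joined Aldoc as higher on all 6 days. The Hk1 probe used above had a mean of 12.1, against 6.98 for the other, so the level of Hk1 is uncertain.

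**Figure D3:**
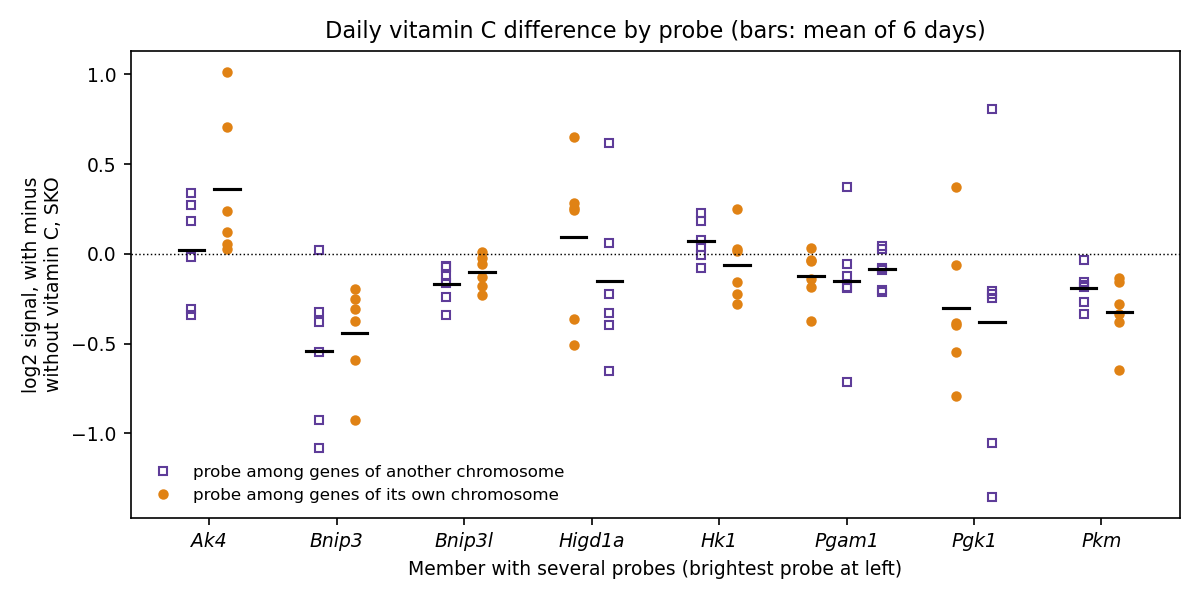
Daily difference in log2 signal, with minus without vitamin C, of the SKO pairs (1 point a day, 6 points a probe) for the 8 genes with several probes; black bars are means, filled circles are probes among genes of their own chromosome and open squares probes among genes of another. Identical probes are drawn once, and the brightest probe of each gene is at left. Both probes of Bnip3 have means below -0.4, and those of Ak4 stand at 0.02 and 0.36.

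The GFP pair asked whether vitamin C acted on these genes without the reprogramming factors. In the GFP cells of day 3, 25 of the 31 genes were lower with vitamin C (80.6%), with a median of -0.39, against 48.0% of all genes and a median of 0.015. With 1 array on each side there is no test of this pair alone. Ero1a stood at 7.23 with vitamin C and 8.63 without it, a difference of -1.40. Bnip3 stood at 7.50 and 8.82, Slc16a3 at 6.24 and 7.41, Slc2a1 at 7.84 and 8.92, and Vegfa at 6.93 and 7.94, with and without it. Each of these 5 was more than 1 log2 unit, or 2-fold, lower in the treated GFP culture, and each was also lower on average in SKO cells, by 0.31 to 0.54. Higd1a (-0.83), Pdk1 (-0.70), Ak4 (-0.70), Slc2a3 (-0.57), Pfkl (-0.56) and Pfkfb3 (-0.52) followed. Aldoc was 0.81 higher, from 5.81 to 6.62. Ak4 was lower in the GFP pair with both of its probes (-0.70 and -0.80).

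The GFP difference was tested against the mean of the 6 SKO differences as an interaction. None of the 31 genes passed, nor did any of all 19938 genes (0.0%). At an unadjusted p under 0.05, 10 of the 31 were more negative in GFP cells and 0 were less so, against 3.43% and 3.48% of all genes. The 10 were Ero1a (-1.08 ± 0.29), Higd1a (-0.93), Slc16a3 (-0.79), Bnip3 (-0.78), Ak4 (-0.72), Slc2a1 (-0.71), Vegfa (-0.68), Slc2a3 (-0.57), Pfkfb3 (-0.54) and Pfkp (-0.47), with adjusted p of 0.620 to 0.716. A single GFP pair enters this test. It is of day 3, while the SKO mean spans days 3 to 10, so virus and day cannot be told apart here. On day 3 alone the 10 SKO differences, in this order, were -0.49, 0.25, -0.46, -1.08, -0.34, -0.48, -0.82, 0.07, 0.11 and -0.02.

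The genes around these were counted in lists by pathway. Of 35 further hypoxia targets measured, 0 were higher and 4 lower with vitamin C past the test: P4ha1 (-0.90 ± 0.11, 1.86-fold) and P4ha2 (-0.59), the catalytic subunits of collagen prolyl 4-hydroxylase, and Stc1 (-0.76) and Stc2 (-0.41), which encode the secreted stanniocalcins. Their list had a median of -0.092. Over all genes 0.642% were higher and 0.291% lower past the test, and 6.5% and 5.07% at an unadjusted p under 0.05. Of 37 further genes of glycolysis and pyruvate use 0 passed, with a median of 0.0070, and at an unadjusted p under 0.05 there were 4 higher and 1 lower. Of the 10 genes of HIF subunits, hydroxylases and Vhl 0 passed, and 1, Egln3, had an unadjusted p under 0.05; Hif1a differed by -0.048 ± 0.080 and Epas1, the second alpha subunit, by 0.14 ± 0.10. Egln3, a HIF hydroxylase that HIF itself induces, differed by 0.33 ± 0.11 (adjusted p = 0.236). None of 6 pentose phosphate genes or 15 genes of the tricarboxylic acid cycle passed; 1 gene of each list had an unadjusted p under 0.05, higher with vitamin C. Among markers of other cells, 0 of 15 for macrophages passed (median -0.0071). Of 7 endothelial markers Tek, an angiopoietin receptor gene, was higher with vitamin C (0.58 ± 0.10, 1.49-fold, adjusted p = 0.0206), beside a list median of -0.0011. The 8 pluripotent cell markers include Sox2 and Pou5f1 (Oct4), which the SKO viruses also carried. The 8 had a median of 0.12 and a highest value of 0.64. Of them 0 passed, and 2 were higher at an unadjusted p under 0.05. None of the 11 fibroblast, 6 skeletal muscle and 4 erythroid markers passed. The part of these markers in the vitamin C values was not tested.

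The second question was how the genes changed as SKO cells were followed from day 3 to day 10. Of the 31 genes 4 rose, against 6.55% of all genes, and 2 fell, against 5.64% (limma, adjusted p under 0.05, 2 arrays against 2). Aldoc rose 5.19-fold, Ak4 3.29-fold, Pdk1 1.52-fold and Ndrg1 1.49-fold. Car12 fell 1.71-fold and Pgam1 1.68-fold. The median difference of the 31 genes was -0.044, against -0.022 over all genes.

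Aldoc had the widest change. Without vitamin C its log2 signal was 6.28, 6.44, 7.35, 7.41, 7.58 and 8.52 on days 3, 4, 5, 6, 8 and 10. With vitamin C it was 6.36, 6.63, 7.72, 7.98, 8.55 and 8.87. Each arm climbed on every day sampled, and the day 10 arrays stood above all others of their arm (2.38 ± 0.20 for day 10 against day 3, adjusted p = 2.55e-05). The GFP arrays of day 3 were at 5.81 and 6.62.

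Ak4, which encodes an adenylate kinase of the mitochondrial matrix, was also higher on late days. Without vitamin C it was at 5.57, 5.39, 6.11, 6.44, 7.01 and 7.12, and with vitamin C at 5.22, 5.58, 6.44, 6.71, 6.71 and 7.11. Its rise was 1.72 ± 0.19 (adjusted p = 0.000166), and 1.60 ± 0.23 with the probe of its own chromosome. These were also the 2 genes that passed between days 8 and 4 (2 of 31 higher, against 1.85% of all genes, and 0 lower, against 0.492%): Aldoc by 1.54 ± 0.20 (adjusted p = 0.0029) and Ak4 by 1.37 ± 0.19 (adjusted p = 0.0041). With the own-chromosome probe Ak4 did not pass that second test (0.97 ± 0.23, adjusted p = 0.0525), nor did Aldoc without the treated array of day 4 (adjusted p just over the threshold).

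Pdk1 rose by 0.61 ± 0.17 (adjusted p = 0.0413). Its values without vitamin C were 6.36, 6.37, 6.39, 6.37, 6.65 and 6.72, and with it 5.56, 5.69, 6.10, 6.18, 6.28 and 6.42. The day 10 arrays lay above the day 3 arrays, and most of the climb was in the treated arm. Ndrg1 rose by 0.57 ± 0.14 (adjusted p = 0.0232), from 7.16 to 7.71 without vitamin C and from 6.82 to 7.42 with it. Neither passed without the treated array of day 3 (Pdk1 0.39, Ndrg1 0.50), without either array of day 10, or within days 3, 5 and 10, with adjusted p of 0.0730 to 0.391 for Pdk1 and 0.0512 to 0.206 for Ndrg1. Ndrg1 did not pass without the untreated array of day 3 either (adjusted p = 0.0711), nor Pdk1 with the arrays centred on their medians (adjusted p = 0.0676).

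Pgam1 fell by 0.75 ± 0.15 (adjusted p = 0.0063), from 9.44 to 8.62 without vitamin C and from 9.26 to 8.58 with it. Car12 fell by 0.77 ± 0.22 (adjusted p = 0.0415), from 4.75 to 3.84 and from 4.33 to 3.70, near the bottom of the signal range. Neither passed without the untreated array of day 3 (Car12 -0.49, Pgam1 -0.71) or without that of day 10 (Car12 -0.89, Pgam1 -0.70). Car12 did not pass without the treated array of day 10 (adjusted p = 0.250), nor Pgam1 without that of day 3 (adjusted p = 0.0502). Just short of the test stood 6 genes: Slc2a3 (0.55, adjusted p = 0.0519), Ldha (-0.43, adjusted p = 0.0663), Ero1a (-0.59), Hk2 (-0.43), Ankrd37 (0.52) and Pgk1 (-0.65), the last 4 with adjusted p between 0.0712 and 0.0941. The day 3 and day 10 arrays of 21 of the 31 genes did not overlap, 12 higher and 9 lower on day 10, against 24.7% and 28.7% of all genes.

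**Figure D4:**
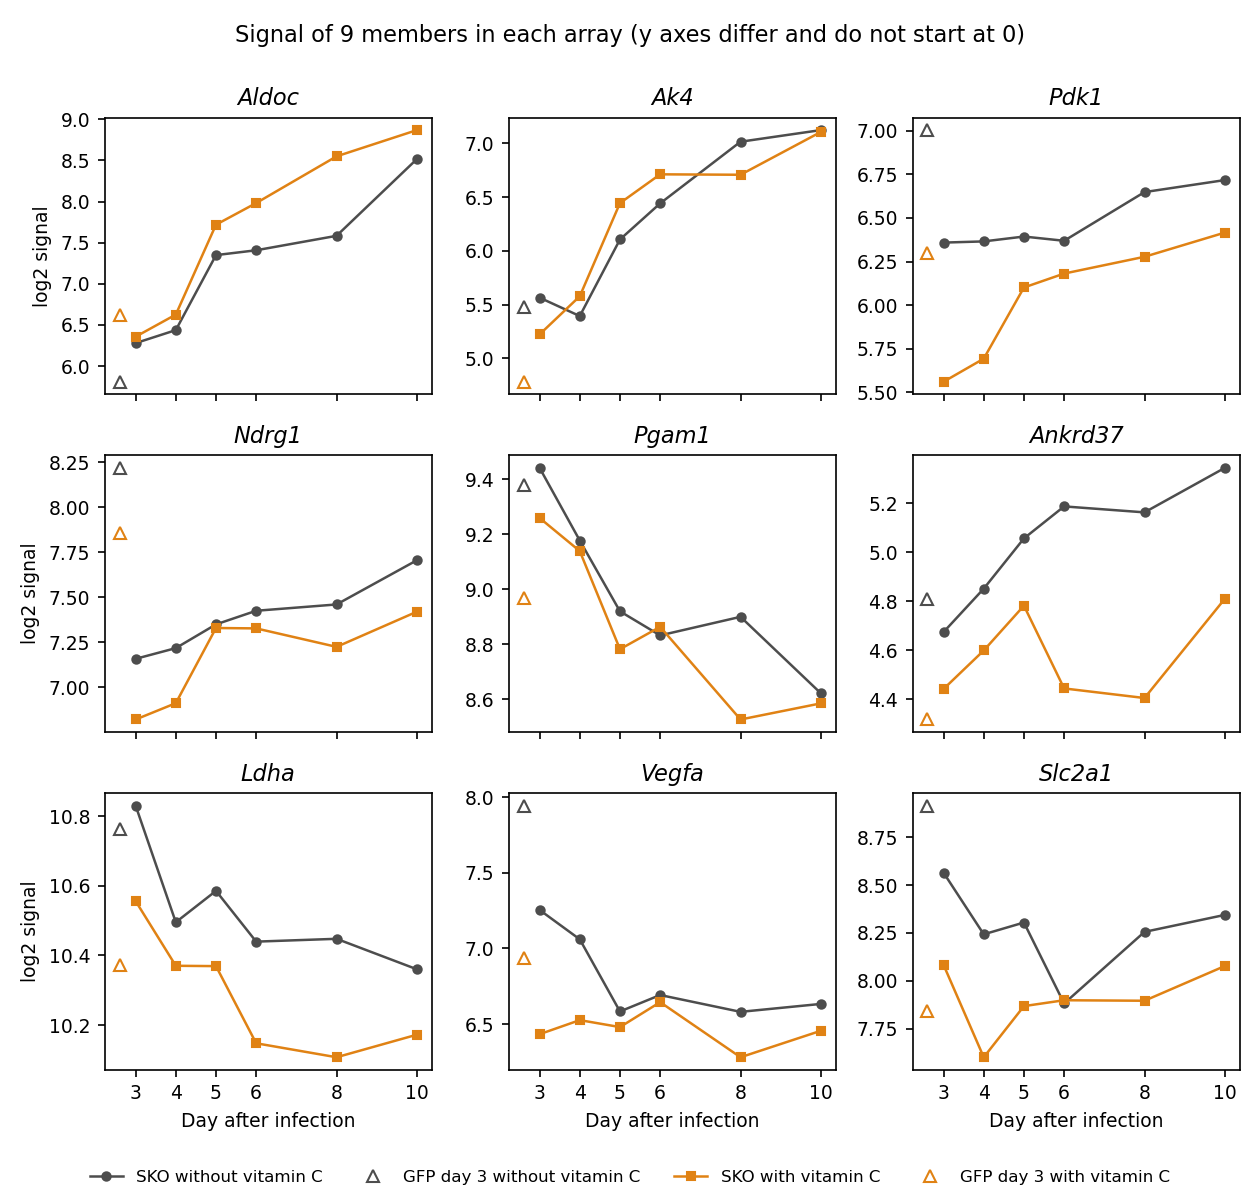
Log2 signal of 9 genes by day after infection, 1 array a point: filled grey circles for SKO cells without vitamin C, filled orange squares for SKO cells with it, and open triangles for the GFP arrays of day 3, drawn to the left of day 3. The y axes differ and do not start at 0. Aldoc and Ak4 climb in both arms, Pgam1 declines in both, and the orange line lies under the grey one on all days for Pdk1, Ndrg1, Ankrd37, Ldha and Vegfa.

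Over any of the 6 days 7 of the 31 genes varied (F test in the same fit, 22.6%, against 18.9% of all genes): Aldoc, Ak4, Hk2, Adm, Slc2a3, Pgam1 and Ero1a. Some of these did not follow a steady course. The day means of Adm were 7.55, 7.27, 7.44, 6.84, 6.78 and 8.01, lowest on day 8 and highest on day 10. Those of Hk2 were 7.92, 7.33, 7.55, 7.05, 6.99 and 7.48, and those of Ero1a 8.68, 8.20, 8.57, 8.02, 7.72 and 8.10. Slc2a3, at 7.17, 6.87, 7.34, 6.95, 6.93 and 7.72, was higher on days 3, 5 and 10 than on days 4, 6 and 8, as were Adm and Hk2; Ero1a on day 10 was below its day 4. The second principal component also set days 3 and 5 apart from days 4, 6 and 8; its part in these 4 courses was not tested.

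Markers of other cells moved over the same days. The mean signal of 15 macrophage markers was 4.63 to 4.66 on day 3 and 5.86 to 5.96 on day 10, and 12 of the 15 rose between them, Lyz2 by 2.62 and Mrc1 by 2.78. Of 8 pluripotent cell markers 4 rose (Nanog, Sox2, Tdgf1 and Pou5f1), and the mean of the 8 went from between 5.36 and 5.42 to between 5.74 and 6.25. The SKO viruses carried Sox2 and Pou5f1 (Oct4), which on day 3 were 0.60 and 7.17 above the GFP arrays. Viral and cellular transcripts were not told apart, so these 2 genes and the mean may include viral signal. Of 7 endothelial markers 1 rose (Tek, 3.71-fold), and of 6 skeletal muscle markers 2 fell (Acta1, 3.57-fold, and Des, 2.55-fold). Of 11 fibroblast markers 1 rose (Pdgfra, 1.81-fold) and 2 fell (Col1a1, 1.73-fold, and Prrx1, 1.42-fold). None of 4 erythroid markers passed. Over all genes 6.55% rose and 5.64% fell. The part of any of these lists of markers in the rise of Aldoc, Ak4, Pdk1 and Ndrg1 was not tested.

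Among the other lists, 4 of the 35 further hypoxia targets rose from day 3 to day 10 and 6 fell. Those that rose included Cxcr4, a chemokine receptor gene (4.95-fold), Egln3 (2.46-fold) and Ppp1r3c, a glycogen-targeting phosphatase subunit gene (1.77-fold). Those that fell included Tfrc, the transferrin receptor gene (2.45-fold), P4ha2 (2.22-fold) and Lox, lysyl oxidase (1.99-fold). Of the 37 further glycolysis and pyruvate genes 4 rose, Pcx, pyruvate carboxylase (2.26-fold), Slc2a12, another glucose transporter gene (2.00-fold), Pdk2, a second pyruvate dehydrogenase kinase gene (1.77-fold), and Hk3 (1.43-fold), and 1 fell, Eno3, the muscle enolase (1.76-fold). Of the 10 HIF system genes Egln3 and Epas1 (1.81-fold) rose. Pentose phosphate genes had 2 of 6 lower, Tkt (1.82-fold) and Pgd (1.42-fold), and the tricarboxylic acid cycle 2 of 15 lower, Suclg2 (1.70-fold) and Cs, citrate synthase (1.57-fold). None of those last 2 lists rose. Beside all these counts stand 6.55% of all genes that rose and 5.64% that fell.

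The third question was what the factors had changed by day 3, from SKO against GFP cells. Of the 31 genes 3 were higher in SKO cells, against 9.22% of all genes, and 8 were lower, against 8.43% (limma, adjusted p under 0.05, 2 arrays against 2). The 3 higher genes were all of glucose uptake or the first steps of the pathway: Slc2a3 (3.17-fold), Pfkp (2.20-fold) and Hk2 (1.94-fold). The 8 lower ones were Car12 (2.09-fold), Ndrg1 (2.07-fold), Bnip3 (1.87-fold), Adm (1.82-fold), Eno2 (1.80-fold), Pdk1 (1.62-fold), Bnip3l (1.47-fold) and Aldoa (1.45-fold). Of the 12 other hypoxia-induced genes 0 were higher and 5 lower, with a median of -0.49, against -0.036 over all genes. Since these tests use the same GFP and day 3 arrays as the comparisons above, their values are not independent of those.

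Both transport and trapping of glucose were among the higher genes. Slc2a3 was at 5.22 and 5.79 in the GFP arrays with and without vitamin C, and at 7.20 and 7.13 in the SKO arrays of day 3 (1.66 ± 0.19, adjusted p = 0.0001). In all 12 SKO arrays it lay at 6.86 or more. Slc2a1, by contrast, was at 7.84 and 8.92 in GFP cells and 8.08 and 8.56 in SKO cells, with overlapping values (-0.055 ± 0.21). Hk2 was at 6.82 and 7.10 in GFP cells and 7.84 and 7.99 in SKO cells (0.96 ± 0.15, adjusted p = 0.0009). Pfkp was at 7.09 and 7.55 in GFP cells and 8.45 and 8.46 in SKO cells (1.14 ± 0.17, adjusted p = 0.0005). For these 3 genes the groups did not overlap. Passed or not, 6 of the 31 genes were higher without overlap, against 25.8% of all genes. Pfkl (-0.29 ± 0.20) and Pfkm (0.23 ± 0.15) did not pass.

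Among the lower genes, Ndrg1 was at 7.86 and 8.22 in GFP cells and 6.82 and 7.16 in SKO cells (-1.05 ± 0.15, adjusted p = 0.0004). Adm was at 8.50 and 8.32 against 7.48 and 7.61 (-0.87 ± 0.19, adjusted p = 0.0075), and Eno2 at 6.95 and 6.85 against 6.01 and 6.10 (-0.85 ± 0.18, adjusted p = 0.0048). Their groups did not overlap, nor did those of Car12 (5.51 and 5.71 against 4.33 and 4.75), Bnip3l and Aldoa. Passed or not, 8 of the 31 genes were lower without overlap, against 30.6% of all genes. Pdk1 overlapped, with the untreated SKO array (6.36) above the treated GFP array (6.30) (-0.69 ± 0.18, adjusted p = 0.0158). So did Bnip3, at 7.50 and 8.82 in GFP cells and 6.71 and 7.79 in SKO cells (-0.90 ± 0.26, adjusted p = 0.0291).

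Both mitophagy genes rest on the probe. By the probe of their own chromosome Bnip3 differed by -0.16 ± 0.19 (adjusted p = 0.641) and Bnip3l by -0.42 ± 0.15 (adjusted p = 0.0697), and neither passed. Set against the day 4 SKO arrays, which had the sign of the GFP arrays on the second component, 2 genes were higher, Slc2a3 (1.37) and Pfkp (0.77), and 4 lower, Adm (-1.14), Car12 (-1.46), Ndrg1 (-0.97) and Pdk1 (-0.62). Hk2 was then at 0.37 (adjusted p = 0.205). Without the treated SKO array of day 3 the lower genes came to 1, Ndrg1, and without the untreated GFP array to 4, with 5 higher. Without the vitamin C term that pairs the arrays, Aldoa, Bnip3 and Pdk1 did not pass (adjusted p = 0.0806, 0.178 and 0.142). Nor did Aldoa with quantile normalization (adjusted p = 0.0518) or median centring (adjusted p = 0.0575). Its difference was -0.65 to -0.42 with single arrays left out.

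**Figure D5:**
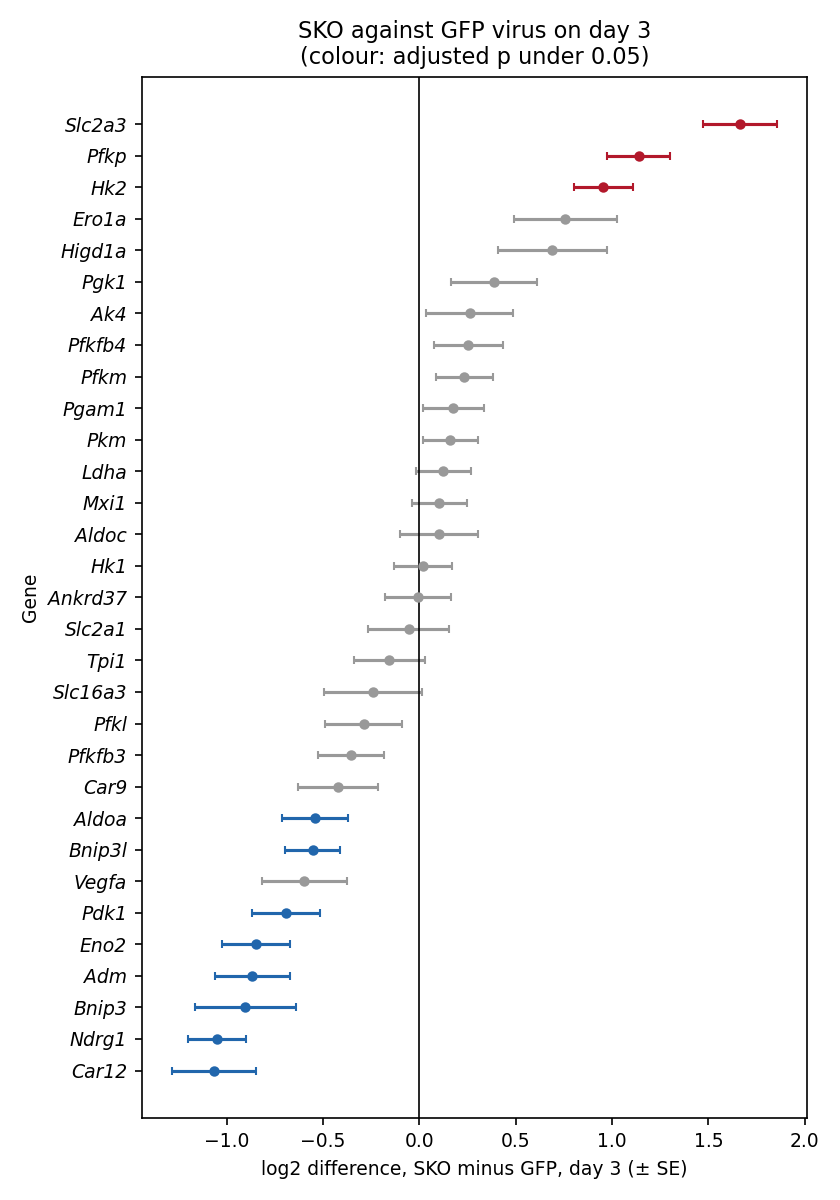
Log2 difference, SKO minus GFP cells on day 3, of the 31 genes (points, with bars of 1 SE from the fit over 14 arrays), sorted; red and blue mark adjusted p under 0.05. Slc2a3, Pfkp and Hk2 lie at 0.96 to 1.66, and the 8 blue genes between -1.07 and -0.54.

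Near the threshold were Ero1a (0.76 ± 0.27, adjusted p = 0.0687) and Higd1a (0.69 ± 0.28, adjusted p = 0.119), higher in SKO cells. Vegfa (-0.60 ± 0.22, adjusted p = 0.0828), lower in SKO cells, was near it too. The other 17 lay between -0.42 and 0.39. Aldoc, which rose later, differed by 0.10 ± 0.20 and Ak4 by 0.26 ± 0.22 on day 3.

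In the HIF system Epas1 was 1.90-fold higher in SKO cells, while Arnt2 (-1.01), Arnt (-0.61), the partner of the alpha subunits, and Hif1a (-0.57) were lower; 6 of the 10 genes did not pass. Of the 35 further hypoxia targets 5 were higher, led by Edn1, the endothelin gene (2.15), and Tfrc (1.59), and 11 lower, among them Bhlhe41 (-1.30), Ppp1r3c (-1.30), Hmox1, heme oxygenase (-1.05), and Plod1, a lysyl hydroxylase gene (-1.05). Of the 37 further glycolysis and pyruvate genes 7 were higher, among them Slc2a12 (1.26), Dld (1.06) and Pdha1 (0.97), the last 2 of the pyruvate dehydrogenase complex, and 5 lower, among them the regulators of that complex Pdp1 (-1.44), Pdk2 (-1.26) and Pdk4 (-1.20). Of 15 tricarboxylic acid cycle genes 4 were higher and 0 lower, and of 6 pentose phosphate genes 0 passed. Beside each count of this paragraph stand 9.22% of all genes higher and 8.43% lower. The fibroblast markers had 5 of 11 lower and 0 higher. Their means were 10.56 to 10.74 in GFP cells and 10.06 to 10.13 in SKO cells of day 3. Higher in SKO cells were 1 of 7 endothelial markers (Tek, 2.66), 1 of 4 erythroid (Hbb-y, 2.49) and 2 of 8 pluripotent cell markers. The last 2 were Pou5f1 and Sox2, which the viruses carried. Lower were 1 of 6 skeletal muscle markers (Des, -1.84) and 1 of 15 macrophage markers (Mpeg1, -0.79). The part of these markers in the differences above was not tested.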

How the data were processed

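Total RNA (Trizol; 100 ng labelled, per the labels' protocols) of 14 cultures was hybridised to Affymetrix whole-transcript arrays. The values the authors deposited come from RMA and Partek, per the submitters' processing notes, whose versions those notes do not give, and are taken as log2 signals from their range.

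Genes were named from probes with 1 symbol, each by its brightest probe. Members and lists were chosen with earlier results of these data known. Tests were fitted in R 4.3.3 with limma 3.58.1 (two-sided moderated tests, Benjamini-Hochberg over 19938 genes, threshold 0.05) and were tested on simulated data. Vitamin C and day contrasts used the 12 SKO arrays with a term for each day (5 residual degrees of freedom; 4 for the slope), and GFP contrasts all 14 arrays (6; 5 for the interaction). The labels pair the arrays by day: deviations from the arm means correlated within pairs at 0.248 (day 6) to 0.677 (day 3), with days 6 and 8 correlating best with another day. Every member is named, and from each further list up to 6 genes past the threshold with the largest difference. Alternatives were other scalings, a filter on dim genes, other eBayes settings, probes, day sets and single arrays left out; the probe of a gene's own chromosome was added after the data were seen. Promoters come from RefSeq (GRCm38.p6).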

Additional observations from a re-analysis of the deposited data

Results flagged for a closer look

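Among the 6 daily differences of each gene, 1 day lay far from the others for 3 of the 31 genes. The rule was the gap to the nearest day over the full range, 0.640 to 0.651 for these 3, against a critical value of 0.625. Its nominal rate is about 1 group in 20. The share over all genes was not computed and the genes share the same arrays, so the count says nothing particular about this list. Eno2 was 0.63 higher with vitamin C on day 6, against -0.09 to 0.16 on the other days. Slc16a3 was 0.34 higher on day 10, against -0.81 to -0.40 on the others, and Adm was 0.58 higher on day 10, against -0.26 to 0.04.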

How the results depend on the processing

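No gene past the test, or with an unadjusted p under 0.05 for vitamin C, changed its direction under an alternative run; of their values, 423 kept their side of the threshold, 46 lost the call and 8 gained it. Over all 31 genes the sign turned under at least 1 alternative for 11 genes with vitamin C, 8 for day 10 against day 3, 10 for day 8 against day 4 and 13 for SKO against GFP. These had an unadjusted p of at least 0.102 in the values given, and none was past the test on either side. With vitamin C, Hk1 went to -0.061 with its own-chromosome probe, Car12 to -0.21 in days 3, 5 and 10 and Tpi1 to 0.099 in days 4, 6 and 8; against GFP, Pgk1 went to -0.23 and Ldha to -0.13 with day 4. For vitamin C in SKO cells the genes called lower came to 1 with quantile normalization or median centring, 2 without the 6646 dimmest genes and 4 with an intensity trend, and 0 under the others; at an unadjusted p under 0.05, 8 genes were lower in days 3, 5 and 10 and 4 in days 4, 6 and 8, with fewer arrays. For day 10 against day 3 the lower genes came to 5 with median centring, 4 without the dimmest genes, 6 with an intensity trend and 5 with array weights, and to 0 to 2 with single arrays left out. The higher ones came to 2 within days 3, 5 and 10 and to 2 to 4 with single arrays left out. For day 8 against day 4 the higher genes came to 1 with own-chromosome probes and 1 to 2 with single arrays left out. The median there was 0.016 with quantile normalization, -0.029 with median centring, 0.050 without the dimmest genes and -0.027 to 0.037 with single arrays left out. For SKO against GFP the lower genes came to 4 with day 4, 5 with no replicate block (no vitamin C term) and 1 to 7 with single arrays left out, the higher ones to 3 to 5, and the median to -0.23 with day 4. The causes were not tested. With no replicate block, and the day as a straight line in its place, 0 of the 31 genes passed for vitamin C, as with the block; 9 were lower at an unadjusted p under 0.05, against 12, and over all genes 85 were higher and 27 lower, against 128 and 58. Over all genes the vitamin C counts were 235 and 129 with an intensity trend, 0 in days 3, 5 and 10, 50 and 12 in days 4, 6 and 8, and 20 and 3 without day 6. Those of day 8 against day 4 were 154 and 19 with array weights, against 369 and 98, and those of SKO against GFP 972 and 579 with day 4, against 1838 and 1681. Median centring turned the split of day 10 against day 3 from 1306 and 1124 to 1124 and 1545. With 1 array per condition and day, and weak signals compressed by RMA, small differences are not resolved, and Car9 and Car12 fell out of the filter on dim genes.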
